A study of Mus musculus with 12 samples.

Results

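The motile cilia genes were examined in mRNA-seq libraries of mouse brain, 6 from mice after transient middle cerebral artery occlusion and reperfusion (tMCAO/R) and 6 from Sham mice. Members were chosen by symbol: every gene whose name began with Cfap, Dnah, Dnai, Drc, Rsph, Tekt or Spag and a number (73 genes), and 6 added genes, Foxj1, Rfx2, Rfx3, Hydin, Ccdc153 and Tmem212. This gave 79 of the 14317 genes of the expression table. All animals were described as male C57BL/6J mice aged 8 weeks, tMCAO/R mice had 60 min of occlusion and 24 h of reperfusion, and the tissue was cortex on the operated side, taken as penumbra. No genotype or drug was named for either group. Values are FPKM (fragments per kilobase, scaled to library size), a level that allows for a gene length. The lengths implied by the values equalled the joined annotated exons for only 379 of the 14317 genes. Levels are therefore less surely comparable between genes than between groups.

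The motile cilium beats because dynein motors, set as outer and inner arms along microtubule doublets, slide the doublets against each other. The nexin-dynein regulatory complex, the radial spokes and the central apparatus hold the doublets together and time the motors. In the brain the main multiciliated cells are ependymal cells, which line the ventricles and move cerebrospinal fluid, and the epithelium of the choroid plexus also carries cilia. Cortex itself has few such cells, and most of its cells carry a single primary cilium without this motor machinery. FOXJ1 and the RFX factors are the transcription factors that switch on genes of motile cilia.

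Several facts of the libraries bear on all results below. The totals implied by the FPKM values lay between 13057288 and 14988265 fragments for tMCAO/R libraries and between 13496273 and 15808212 for Sham libraries. Ddx3y, a gene of chromosome Y, stood at 5.49 to 12.1 FPKM in tMCAO/R mice, whereas all 6 Sham libraries list it at 0, together with Eif2s3y, Kdm5d and Uty. The Sham libraries thus went against their description as male, and sex and surgery cannot be told apart. The summed level of 12 hippocampal genes was 84.7 to 97.6 FPKM in tMCAO/R mice and 255 to 364 FPKM in Sham mice, and that of 12 striatal genes was 68.9 to 560 FPKM in tMCAO/R mice and 32.4 to 43.2 FPKM in Sham mice. The summed level of 15 choroid plexus genes was 13.2 to 16.9 FPKM in tMCAO/R mice and 46.1 to 1920 FPKM in Sham mice, with the highest value in Sham mouse 4. The defining choroid plexus gene Ttr averaged 0.606 ± 0.962 FPKM in tMCAO/R mice and 403 ± 715 FPKM in Sham mice (SD, n = 6 each). Their part in the results on cilia was not tested, and in tissue samples fewer ciliated cells and less RNA per cell cannot be told apart. tMCAO/R mouse 4 stood apart from its group over all genes.

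Most members were scarce. The mean over the 12 libraries was under 1 FPKM for 58 members and at least 5 FPKM for 6, and 12 members had no fragment in at least 1 library. The groups were compared in 2 ways: all genes with at least 0.5 FPKM in 6 libraries (11743 genes, 33 of them members) were compared on log2(FPKM + 1) with limma, and whole fragments, recovered from the steps of the FPKM values, were compared with limma-voom for the 13900 genes with at least 10 fragments in 6 libraries (74 members). Changes are log2 fold changes (log2FC) of tMCAO/R over Sham, and a call means a Benjamini-Hochberg adjusted p below 0.01 over all genes tested. A log2FC on the log2(FPKM + 1) scale understates the change of a gene near 0. The limma-voom value is therefore given beside it for most of the scarce members that were called.

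More members were lower than higher in tMCAO/R mice. All 6 tMCAO/R values lay below all 6 Sham values for 17 of the 79 members (21.5%), against 12.6% of all 14317 genes, and above them for 5 (6.33%), against 12.3% of all genes. Without tMCAO/R mouse 4 these counts were 19 members, against 14.7% of all genes, and 5 members, against 16.8%. On log2(FPKM + 1), 13 of 33 tested members fell, where 17.8% of all genes did, and 3 rose, where 17.8% of all genes did. On whole fragments 20 of 74 fell (background 16.5%) and 5 rose (background 16.3%), of which 10 and 1 were past a log2FC of 2 in size (background 1.85% and 1.54%). With no minimum level, so that all 79 members entered the limma fit, 20 fell (25.3%, background 16.5%) and 6 rose (7.59%, background 15.5%).

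The median log2FC of the members on whole fragments was -0.63, with 57 of 74 (77.0%) below 0, whereas the median of all genes was -0.04, with 52.4% below 0. Taking all calls of both fits, 22 members were lower, 6 were higher and 51 had no call. The 51 include 5 members too scarce for either fit. The share of all genes called in either fit was not computed, so these joint counts have no background. Of the 13 members called lower on log2(FPKM + 1), 5 had passed the minimum level only through the Sham libraries (Tmem212, Ccdc153, Drc7, Dnah9 and Dnah1), so that they had to differ. Among the 19 members at 0.5 FPKM or more in all 12 libraries, 3 fell (Cfap36, Rsph3a and Rsph9) and 3 rose (Drc1, Cfap300 and Spag9). Of the 10010 genes at that level in all 12 libraries 15.9% fell and 18.2% rose, so the counts of these 19 members were near those of all genes.

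**Figure D1:**
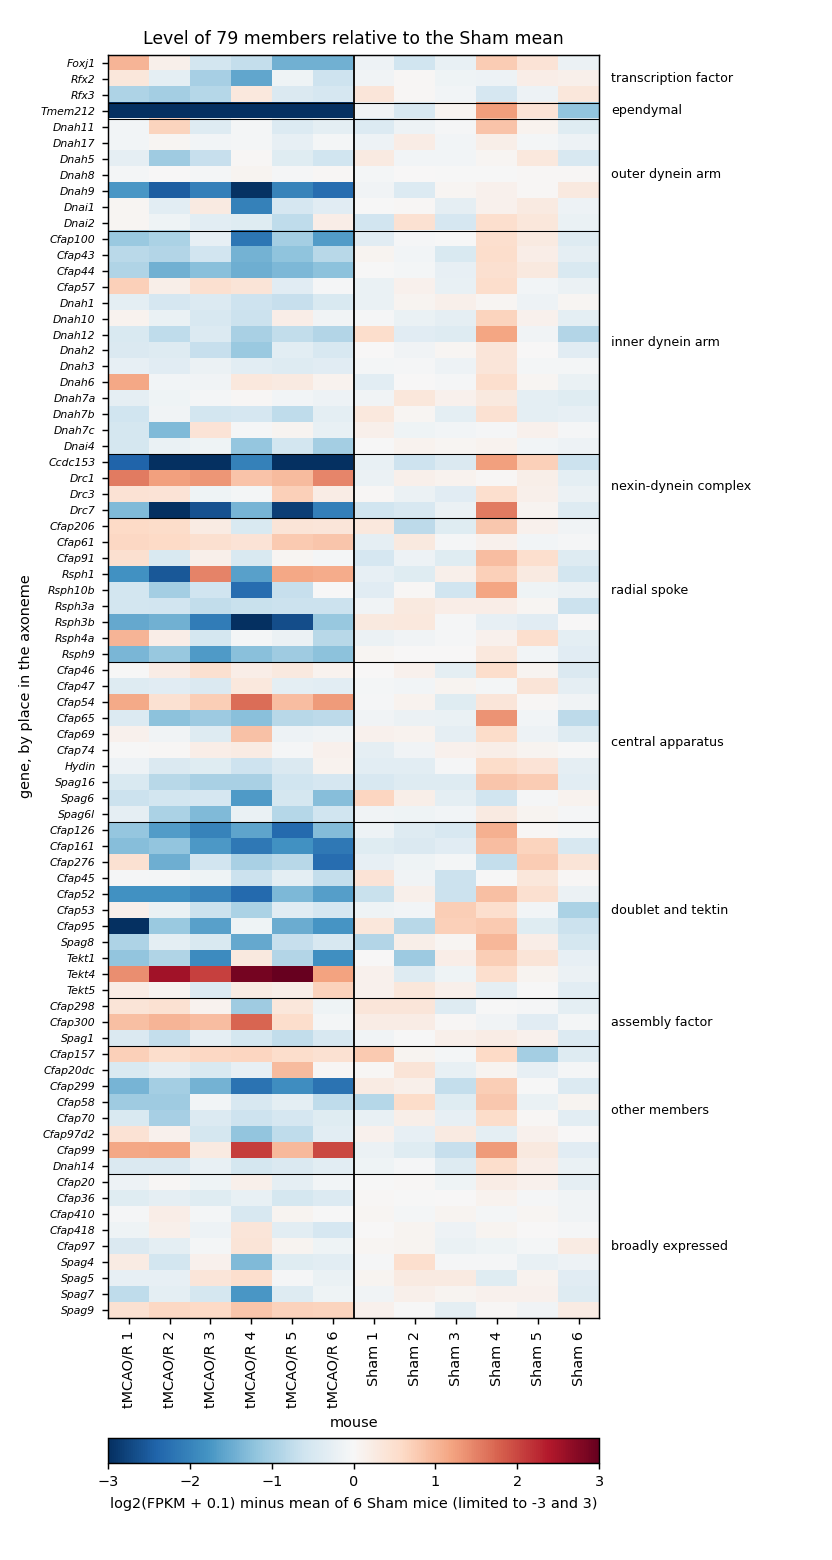
Level of each of the 79 members (rows, grouped by the place of the product in the axoneme) in each mouse (columns, 6 tMCAO/R and then 6 Sham), as log2(FPKM + 0.1) minus the mean of the 6 Sham mice, with blue for lower and red for higher. Tmem212, Dnah9, Ccdc153, Drc7 and Rsph3b were low in every tMCAO/R mouse, Drc1 and Tekt4 were high in every one, and many rows were red in Sham mouse 4.

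The strongest fall was that of Tmem212, a transmembrane protein gene used as a marker of ependymal cells. It had 0.188 FPKM in tMCAO/R mouse 1 and was at 0 in the other 5 tMCAO/R mice, against 1.44, 3.38 and 8.28 FPKM (lowest, median and highest) in Sham mice. These levels rested on 2 fragments in all tMCAO/R libraries and 240 in all Sham libraries, a ratio of 0.00849 (exact 95% interval 0.00102 to 0.031, counting error only). Tmem212 entered both fits only through Sham libraries, so the groups could not overlap and its call is not independent support for a fall. Its log2FC on log2(FPKM + 1) was -2.13 (limma, adjusted p = 5.6e-06). It was the only member past a log2FC of 2 in size on this scale, where 0.255% of all genes were called and past a log2FC of 2 downward and 0.247% upward, and it was at -1.92 without Sham mouse 4.

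The 3 transcription factors among the members overlapped between the groups. Foxj1, the master regulator of motile cilia, had 1.06, 1.95 and 6.29 FPKM in tMCAO/R mice (lowest, median and highest), against 1.99, 2.72 and 5.25 FPKM in Sham mice. Its range in tMCAO/R mice covered the whole Sham range, with the highest level of all 12 mice in tMCAO/R mouse 1, and the log2FC of -0.33 (SE 0.28) did not pass the test (limma, adjusted p = 0.33). It was -0.56 (adjusted p = 0.045) without tMCAO/R mouse 1 and -0.21 to -0.20 without any one of tMCAO/R mice 5 and 6 and Sham mouse 4. Rfx3, an RFX factor needed for cilia of many cell types, averaged 1.46 ± 0.617 FPKM in tMCAO/R mice and 2.14 ± 0.495 FPKM in Sham mice (SD, n = 6 each). Its log2FC of -0.37 was not called (limma, adjusted p = 0.045) but was called without tMCAO/R mouse 4, at -0.49 (adjusted p = 0.0019). That mouse had 2.63 FPKM of Rfx3, against 0.984 to 1.51 FPKM in the other tMCAO/R mice. Rfx2, which acts with Foxj1 on cilia genes, was below the minimum level, at 0.0441 to 0.443 FPKM in tMCAO/R mice and 0.286 to 0.389 FPKM in Sham mice, and was not called on whole fragments (log2FC -0.86, limma-voom, adjusted p = 0.075).

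Other genes that direct the making of multiciliated cells and their basal bodies were taken as a list of 15, of which 12 were in the table and 7 were tested on log2(FPKM + 1). Of these, 3 fell, where 17.8% of all genes did: Ccno, a cyclin-like gene needed to make many basal bodies (log2FC -0.65, limma, adjusted p = 1.0e-04), Emx2, a homeobox gene of the forebrain (-0.83, adjusted p = 9.0e-05), and Rfx1 (-0.33, adjusted p = 0.0051). On whole fragments 5 of 10 fell and 1 rose (background 16.5% and 16.3%), and among these Gmnc, which starts the multiciliated program, had 0.0268 to 0.475 FPKM in tMCAO/R mice and 0.204 to 0.629 FPKM in Sham mice (log2FC -1.95, limma-voom, adjusted p = 0.0046).

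RFX factors bind the X-box, a palindrome of which GTTGCC is a common arm, so these letters were looked for in the promoters of the members. Promoters of 60 members were found in RefSeq (GRCm38.p6), each with 250 bases before and 50 bases after the start site. GTTGCC was present on either strand in 27 of them (45.0%), and in 14.1% of the 27025 genes with such a window. The full X-box, GTTNCC and GGNAAC set 2 bases apart, which can contain GTTGCC, was in 2 of 60 (Cfap20dc and Cfap298), against 0.529% of all genes, and the forkhead letters GTAAACA, a core of FOXJ1 sites, were in 3 of 60 (5.0%), against 4.05%. By call, GTTGCC was in 7 of 18 lower members with a window, in 3 of 5 higher members and in 17 of 37 members with no call. A match is a description of these letters only.

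Stretches around the matches are shown for 5 members that fell and 2 that rose, to place the same letters beside opposite changes. The capitals mark GTTGCC or its complement GGCAAC, each stretch reads along the strand of its gene, and positions are those of GRCm39, to which the RefSeq letters matched exactly.
Ccdc153, lower, chr9:44151782-44151867, plus strand: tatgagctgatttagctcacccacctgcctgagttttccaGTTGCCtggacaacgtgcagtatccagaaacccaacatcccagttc
Cfap161, lower, chr7:83444041-83444126, minus strand: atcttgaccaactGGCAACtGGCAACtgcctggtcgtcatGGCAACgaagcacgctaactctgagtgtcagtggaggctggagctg
Cfap44, lower, chr16:44215103-44215188, plus strand: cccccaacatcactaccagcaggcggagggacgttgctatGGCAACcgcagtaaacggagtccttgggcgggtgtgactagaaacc
Rsph3b, lower, chr17:7215706-7215779, minus strand: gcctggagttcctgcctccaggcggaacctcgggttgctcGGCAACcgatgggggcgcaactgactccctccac
Spag6l, lower, chr16:16647178-16647233, minus strand: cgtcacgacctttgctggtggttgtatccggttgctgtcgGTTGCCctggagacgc
Drc1, higher, chr5:30486340-30486425, plus strand: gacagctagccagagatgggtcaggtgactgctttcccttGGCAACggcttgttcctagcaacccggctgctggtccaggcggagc
Tekt4, higher, chr17:25690532-25690613, plus strand: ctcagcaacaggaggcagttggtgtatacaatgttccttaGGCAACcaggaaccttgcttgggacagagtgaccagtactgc

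Among the 7 genes of the outer dynein arm, which drives the beat frequency, 1 fell on whole fragments, where 16.5% of all genes did. This count is near that of all genes. Dnah9, a heavy chain of the distal outer arm, had 0.00895, 0.0909 and 0.155 FPKM in tMCAO/R mice (lowest, median and highest), against 0.544, 0.781 and 0.942 FPKM in Sham mice. It had 188 fragments in tMCAO/R libraries and 1680 in Sham libraries. The log2FC was -0.70 on log2(FPKM + 1) (SE 0.06, limma, adjusted p = 1.1e-06) and -3.48 on whole fragments (SE 0.42, limma-voom, adjusted p = 1.2e-05). Dnah9 passed the minimum of 0.5 FPKM only through Sham libraries, so its groups could not overlap and its call on log2(FPKM + 1) is not independent support for a fall. It was even among Sham mice, where its level in mouse 4 was 1.11 times the mean of the other 5. Dnah5, the partner heavy chain, was at 0.206 ± 0.0789 FPKM in tMCAO/R mice and 0.326 ± 0.0829 FPKM in Sham mice (SD, n = 6 each) and was not called on whole fragments (log2FC -0.73, limma-voom, adjusted p = 0.040). Dnai1, an intermediate chain, was not called either (log2FC -0.19, limma, adjusted p = 0.20; -0.08 without tMCAO/R mouse 4), with 0.154 to 1.16 FPKM in tMCAO/R mice and 0.767 to 1.16 FPKM in Sham mice.

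The 14 genes of the inner dynein arms, which shape the bend, and of the complexes that anchor them held 7 of the 20 falls on whole fragments, among 13 tested. Over all genes 16.5% fell in that fit. With no minimum level, 4 of the 14 fell, where 16.5% of all genes did. Cfap44 and Cfap43, partners in the tether that holds inner arm motors, had a log2FC of -2.15 (SE 0.32, limma-voom, adjusted p = 7.5e-05) and -1.5 (SE 0.33, adjusted p = 0.0016), with no overlap of the groups. Cfap44 had 0.0481 to 0.116 FPKM in tMCAO/R mice and 0.197 to 0.465 FPKM in Sham mice. Cfap100, which binds near the inner arm that sets the waveform, averaged 0.339 ± 0.196 FPKM in tMCAO/R mice and 0.848 ± 0.233 FPKM in Sham mice (SD, n = 6 each; log2FC -0.47 on log2(FPKM + 1), limma, adjusted p = 0.0018; -1.45 on whole fragments, adjusted p = 0.0026). The heavy chain Dnah1 fell to 66.4% of the Sham mean, with 0.342 to 0.483 FPKM in tMCAO/R mice and 0.529 to 0.699 FPKM in Sham mice (log2FC -0.20 on log2(FPKM + 1), limma, adjusted p = 0.0061; -0.58 on whole fragments, adjusted p = 0.0044). Dnah1 passed the minimum of 0.5 FPKM only through Sham libraries, which fixed its lack of overlap. Its call on log2(FPKM + 1) was lost without any one of tMCAO/R mice 2, 5 and 6 and Sham mice 2, 3, 4 and 6 (log2FC -0.20 to -0.18).

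The other inner arm calls were Dnah3 (log2FC -2.60, limma-voom, adjusted p = 0.0028), on 22 fragments in tMCAO/R libraries and 113 in Sham libraries, Dnah2 (-1.16, adjusted p = 0.0091) and Dnai4 (-0.88, adjusted p = 0.0094). The call of Dnah3 was lost in 2 alternative settings, among them limma with no minimum level (log2FC -0.035, adjusted p = 0.25). Sham mouse 4 had 0.0666 FPKM of Dnah3, against 0.016 to 0.0272 FPKM in the other Sham mice. The call of Dnah2 was lost without any one of tMCAO/R mice 1, 2, 3 and 6 and Sham mice 1 to 5, with log2FC between -1.27 and -0.85 over all single mice left out. That of Dnai4 was lost without any one of tMCAO/R mice 1, 4, 5 and 6 or any one Sham mouse, with log2FC between -1.02 and -0.69. Dnah7a, Dnah7b and Dnah7c, tandem heavy chain genes whose transcripts are 96.8% to 97.3% identical, were not called, and reads may be split among them. Their summed level was 0.478 ± 0.123 FPKM in tMCAO/R mice and 0.618 ± 0.0949 FPKM in Sham mice (SD, n = 6 each), with overlap.

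The nexin-dynein regulatory complex, the link between neighbouring doublets, moved in both directions. Ccdc153, a subunit also used as a marker of ependymal cells, had 0, 0.0229 and 0.174 FPKM in tMCAO/R mice (lowest, median and highest), against 0.61, 0.792 and 2.5 FPKM in Sham mice. This came to 28 fragments in tMCAO/R libraries and 618 in Sham libraries (log2FC -0.98 on log2(FPKM + 1), limma, adjusted p = 2.7e-04; -5.17 on whole fragments, adjusted p = 3.2e-04). Drc7, a linker subunit, was at 0.0301, 0.116 and 0.328 FPKM in tMCAO/R mice, against 0.601, 0.78 and 3.06 FPKM in Sham mice (log2FC -0.82 on log2(FPKM + 1), limma, adjusted p = 0.0022; -2.98 on whole fragments, adjusted p = 0.0014). Both passed the minimum of 0.5 FPKM only through Sham libraries, so neither could overlap between groups. Both were highest in Sham mouse 4.

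Drc1, which forms the base of the same complex, went the other way. It had 4.59, 6.18 and 7.52 FPKM in tMCAO/R mice, against 2.0, 2.62 and 2.84 FPKM in Sham mice, with a log2FC of 1.00 (SE 0.11, limma, adjusted p = 9.8e-06). Every tMCAO/R mouse lay above every Sham mouse, and its mean was 2.42 times that of Sham. No exon of another annotated gene overlapped it. Drc3 was not called (log2FC 0.14, limma, adjusted p = 0.23; 0.09 without tMCAO/R mouse 5), at 0.768 to 1.45 FPKM in tMCAO/R mice and 0.651 to 1.24 FPKM in Sham mice.

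**Figure D2:**
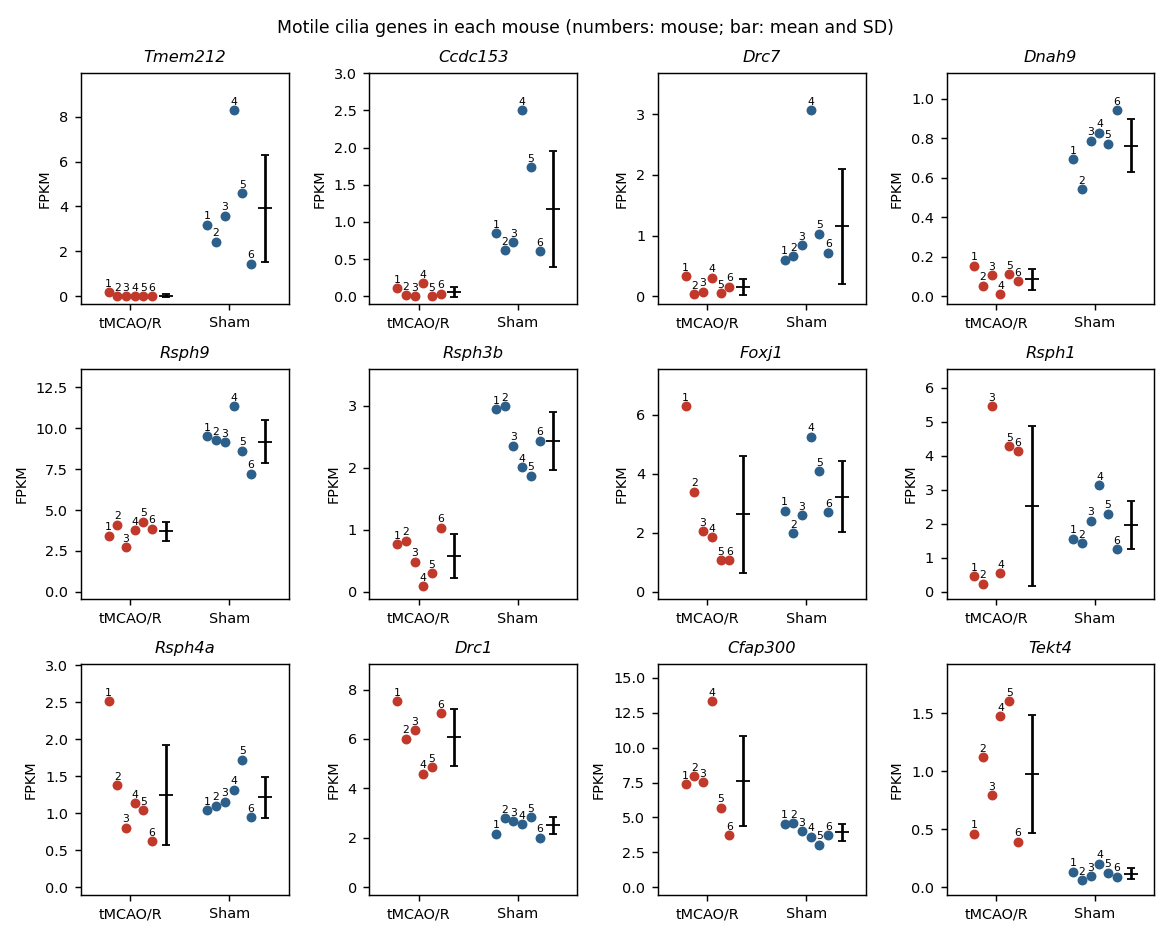
FPKM of 12 members in each mouse, with tMCAO/R in red on the left and Sham in blue on the right of each panel (numbers are mice, the black bar is the mean and SD of 6). Tmem212, Ccdc153, Drc7, Dnah9, Rsph9 and Rsph3b separated the groups downward, Drc1 and Tekt4 upward, and the tMCAO/R values of Rsph1 fell into 3 mice at 4.13 to 5.46 FPKM and 3 at 0.239 to 0.539 FPKM.

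The radial spokes are T-shaped arms that carry signals from the central apparatus to the dyneins. They gave 3 falls among 9 members on whole fragments, where 16.5% of all genes fell. Rsph9, a protein of the spoke head, had 2.72, 3.81 and 4.29 FPKM in tMCAO/R mice, against 7.23, 9.20 and 11.4 FPKM in Sham mice (log2FC -1.12, SE 0.11, limma, adjusted p = 2.5e-06). The tMCAO/R mean was 40.2% of the Sham mean. Its annotated exons share 25.8% of their length with Mrps18a on the other strand, a gene that was also lower (log2FC -0.53, adjusted p = 3.1e-04), and the counting is not stated to use strand.

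Rsph3b and Rsph3a, which encode near-identical spoke stalk proteins, had a log2FC of -1.14 (SE 0.14, limma, adjusted p = 2.1e-05) and -0.40 (SE 0.09, adjusted p = 0.0025) on log2(FPKM + 1), and of -2.35 (adjusted p = 1.9e-04) and -0.68 (adjusted p = 0.0048) on whole fragments. Their transcripts are 99.1% identical, so how reads were divided between them is uncertain, and their sum is the firmer value. It was 1.12 to 2.08 FPKM in tMCAO/R mice and 3.49 to 5.1 FPKM in Sham mice, without overlap. Rsph4a, another head protein, had nearly the same mean in both groups, 1.25 ± 0.671 FPKM in tMCAO/R mice and 1.22 ± 0.279 FPKM in Sham mice (SD, n = 6 each; log2FC -0.02, SE 0.15, limma, adjusted p = 0.94).

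Rsph1, a further head protein, had a wide spread among tMCAO/R mice. The 6 tMCAO/R mice were at 0.455, 0.239, 5.46, 0.539, 4.28 and 4.13 FPKM, against 1.56, 1.43, 2.10, 3.13, 2.29 and 1.25 FPKM in the 6 Sham mice. No tMCAO/R mouse lay within the Sham range: 3 were below it and 3 were above it, and the log2FC of -0.05 (SE 0.39, limma, adjusted p = 0.93) is a mean over both. These levels came from 12 to 279 fragments a library in tMCAO/R mice, against 58 to 144 in Sham mice. Slc37a1, whose exons overlap 9.7% of Rsph1 on the other strand, was at 0.184 to 0.390 FPKM in tMCAO/R mice and 0.193 to 0.270 FPKM in Sham mice. Cfap61, a part of the spoke base, rose on whole fragments, from low levels: 0.106 to 0.174 FPKM in tMCAO/R mice and 0.0291 to 0.0895 FPKM in Sham mice (log2FC 1.36, limma-voom, adjusted p = 0.0014).

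The central apparatus, the pair of single microtubules and their projections, had 10 members. Spag6l and Spag6, related proteins of the central pair, had a log2FC of -0.31 (limma, adjusted p = 0.0052) and -0.40 (adjusted p = 0.0076) on log2(FPKM + 1). Spag6l had 0.282 to 0.737 FPKM in tMCAO/R mice and 0.775 to 1.06 FPKM in Sham mice (log2FC -0.82 on whole fragments, limma-voom, adjusted p = 0.0070). Its call on log2(FPKM + 1) was lost without any one of tMCAO/R mice 2, 3 and 5 and Sham mice 4 and 5 (log2FC -0.30 to -0.26). The call of Spag6 was lost on whole fragments (log2FC -1.0, limma-voom, adjusted p = 0.015), and without any one of tMCAO/R mice 1, 4 and 6 and Sham mice 1, 2, 5 and 6 (log2FC -0.41 to -0.33). Cfap54, a projection protein, rose on whole fragments, with 0.228, 0.386 and 0.657 FPKM in tMCAO/R mice and 0.086, 0.139 and 0.205 FPKM in Sham mice (log2FC 1.47, limma-voom, adjusted p = 4.8e-04), and its groups did not overlap. Hydin, the giant protein whose loss in mice causes hydrocephalus, was near the floor, at 0.00684 to 0.0767 FPKM in tMCAO/R mice and 0.031 to 0.139 FPKM in Sham mice, and was not called (log2FC -1.03, limma-voom, adjusted p = 0.14).

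Proteins inside the doublet microtubules and the tektins, which stiffen them, made up 11 members. Cfap161, Cfap52 and Cfap126, proteins bound to the wall of the doublet, had log2FC of -3.59, -3.25 and -2.40 on whole fragments (limma-voom, adjusted p = 7.6e-04, 6.9e-04 and 7.4e-04). Cfap52 was at 0 to 0.0978 FPKM in tMCAO/R mice and 0.217 to 0.843 FPKM in Sham mice, and Cfap161 was at 0 to 0.0951 FPKM in tMCAO/R mice and 0.219 to 0.751 FPKM in Sham mice. Neither reached 10 fragments in any tMCAO/R library, so both entered the fit only through Sham libraries, as Tmem212 did. Cfap95, another doublet protein, was called on log2(FPKM + 1) (log2FC -0.81, limma, adjusted p = 0.0068) but not on whole fragments (-2.03, adjusted p = 0.021), nor without any one of tMCAO/R mice 1, 2, 3, 5 and 6 and Sham mice 1, 3 and 4 (log2FC -0.84 to -0.69).

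Tekt4, a tektin best known from sperm, was the one member called and past a log2FC of 2 upward, where 1.54% of all genes were. It had 0.393, 0.958 and 1.6 FPKM in tMCAO/R mice, against 0.0636, 0.110 and 0.204 FPKM in Sham mice, with 531 fragments in tMCAO/R libraries and 67 in Sham libraries. The log2FC was 2.86 (SE 0.53, limma-voom, adjusted p = 5.1e-04). Tekt5 was not called, at 2.66 to 5.85 FPKM in tMCAO/R mice and 2.85 to 4.51 FPKM in Sham mice, nor was Tekt1 (log2FC -0.41, limma, adjusted p = 0.027). Without tMCAO/R mouse 4, Tekt1 was called lower in both fits (-0.51, limma, adjusted p = 0.0026, and -1.66, limma-voom, adjusted p = 0.0050).

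**Figure D3:**
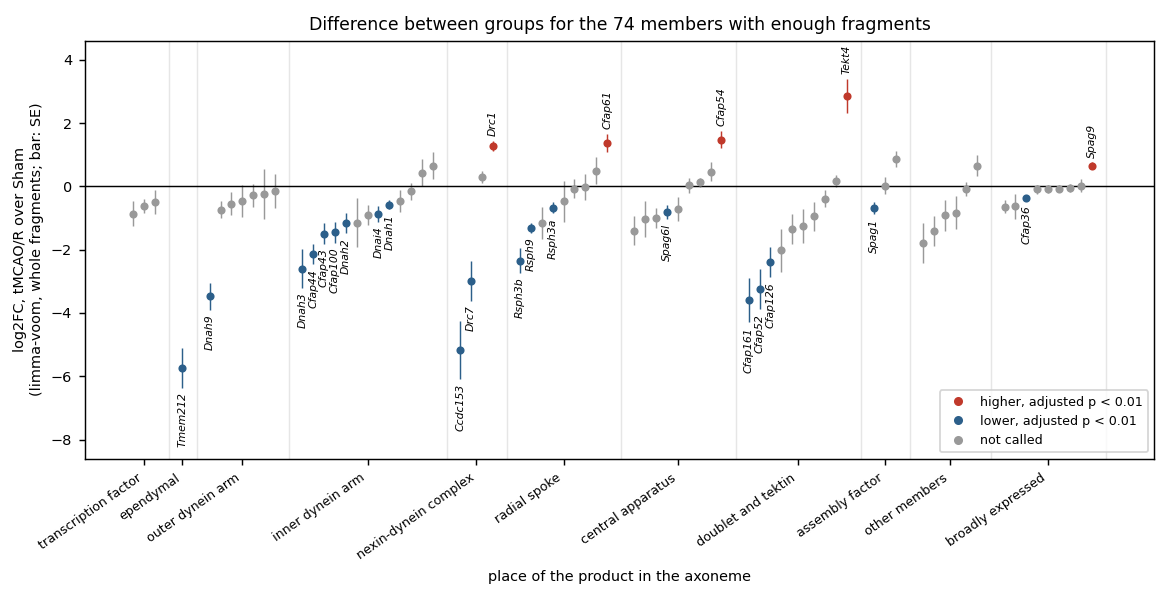
The log2FC of tMCAO/R over Sham on whole fragments (vertical axis, points with SE, limma-voom) for the 74 members with enough fragments, ordered within each class, with called members named. Calls were 20 lower (blue) and 5 higher (red), the inner dynein arm held 7 lower, and the largest values were Tmem212 at -5.73 and Tekt4 at 2.86.

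Assembly factors build the dynein arms in the cytoplasm before they enter the cilium. Cfap300 had 3.73, 7.46 and 13.3 FPKM in tMCAO/R mice, against 3.06, 3.88 and 4.57 FPKM in Sham mice (log2FC 0.73, limma, adjusted p = 0.0068). It was highest in tMCAO/R mouse 4, and the call was lost on whole fragments (0.85, limma-voom, adjusted p = 0.011) and without any one of tMCAO/R mice 1 to 3 and Sham mice 3 to 6 (log2FC 0.68 to 0.74). Spag1 fell on whole fragments by 0.68 on the log2 scale (adjusted p = 0.0060), with 0.209 to 0.334 FPKM in tMCAO/R mice and 0.293 to 0.505 FPKM in Sham mice. Its call was lost without any one of tMCAO/R mice 2, 5 and 6 and Sham mice 2 to 5 (log2FC -0.70 to -0.62). Cfap298 was not called (log2FC 0.02, limma, adjusted p = 0.89).

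A further 9 members share a symbol with the axonemal genes but are expressed in most cells or act elsewhere. Cfap36, the member with the highest mean FPKM, had 16.1, 18 and 19.9 FPKM in tMCAO/R mice, against 21.8, 23.3 and 24.9 FPKM in Sham mice, and fell by 0.35 on the log2(FPKM + 1) scale (limma, adjusted p = 0.0024). Spag9, a scaffold of JNK signalling and vesicle transport, averaged 7.57 ± 0.659 FPKM in tMCAO/R mice and 4.83 ± 0.648 FPKM in Sham mice (SD, n = 6 each; log2FC 0.56, limma, adjusted p = 2.2e-04). The median log2FC of these 9 on whole fragments was -0.09, whereas it was -0.71 for the 65 other members tested. The remaining 8 members were of mixed or less certain place. Of them Cfap299, with 0 to 0.129 FPKM in tMCAO/R mice and 0.184 to 0.673 FPKM in Sham mice, was too scarce for both fits and fell only in the limma fit with no minimum level.

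Genes of the same pathway outside the chosen symbols also held more falls than rises. Of 76 other motile cilia genes, 49 were in the table, and of the 24 tested on log2(FPKM + 1) 9 fell and 2 rose, where 17.8% of all genes did each. On whole fragments 15 of 44 fell (background 16.5%) and 4 rose (background 16.3%), with a median log2FC of -0.63. Spef2, a central apparatus protein, was at 0.00619 to 0.0875 FPKM in tMCAO/R mice and 0.106 to 0.323 FPKM in Sham mice (log2FC -3.14, limma-voom, adjusted p = 1.9e-04). Among those that rose were Pierce1, which helps to dock the outer arm (log2FC 0.84, limma, adjusted p = 0.0022), and Dnal1, a light chain of the outer arm (0.43, adjusted p = 0.0066).

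Intraflagellar transport and the BBSome serve primary and motile cilia alike. Of 38 tested genes 5 fell and 4 rose, shares below the 17.8% of all genes in either direction, and their median log2FC was -0.04. Kif3b, a motor subunit that carries cargo into the cilium and also works in axons, had 16.9 to 20.3 FPKM in tMCAO/R mice and 8.90 to 11.3 FPKM in Sham mice (log2FC 0.84, limma, adjusted p = 5.4e-06). Ift20 fell, with 7.67 to 11.4 FPKM in tMCAO/R mice and 10.9 to 14.8 FPKM in Sham mice (-0.38, limma, adjusted p = 0.0050).

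In a list of 16 ependymal genes, 3 of which are members, 7 of 10 tested fell, where 17.8% of all genes did, and the summed level of the list was 22.2 to 47.5 FPKM in tMCAO/R mice and 45.4 to 72.7 FPKM in Sham mice. Of the 7, Tmem212 and Ccdc153 are members, and Enkur, Dynlrb2 and Fam183b are also among the other motile cilia genes. The other falls were Sox9 and Nnat. Cd24a (log2FC 0.77, limma, adjusted p = 0.015) and Vim (0.24, adjusted p = 0.38) went the other way without a call. Nnat, which had the highest mean FPKM of the list and so weighed most on its sum, is also expressed by neurons. It averaged 10.7 ± 3.10 FPKM in tMCAO/R mice and 28.3 ± 9.18 FPKM in Sham mice (SD, n = 6 each). Of the choroid plexus list, 3 of 5 tested genes fell. The share of these cells in each dissection was not measured, and its part in the falls was not tested.

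The members also differed among the Sham mice themselves. The 70 members outside the broadly expressed class had a median coefficient of variation of 38.5% over the 6 Sham mice, against 25.8% for the 3242 genes of like level (Sham mean of 0.140 to 0.927 FPKM) and 14.7% for all genes. That range runs from the lower to the upper quartile of the members. Members below and above it count in the 38.5%, so the levels were only partly matched, and the scarcest members varied widely (Dnah11 116.7%). The 9 broadly expressed members were at 12.3%. Sham mouse 4 had the highest level for 44 of the 70 members (62.9%), against 36.1% of genes of like level, and its median ratio to the mean of the other 5 Sham mice was 1.68 for the members and 1.15 for genes of like level. Sham mouse 6 had the lowest level for 24 of the 70, with a median ratio of 0.715.

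The rise in Sham mouse 4 ran through most of the axoneme, with exceptions. The mouse was highest for 11 of 14 inner arm genes, 8 of 10 central apparatus genes and 7 of 11 doublet genes. It was also highest for 3 of 4 genes of the nexin-dynein complex and 5 of 9 spoke genes. In contrast, it was highest for 2 of 7 outer arm genes, 1 of 3 assembly factors and 1 of 3 transcription factors (Foxj1). Among genes of like level the share was 36.1%. Drc7 was 3.98 times, Tmem212 2.72 times, Ccdc153 2.75 times and Foxj1 1.86 times the mean of the other Sham mice. Dnah9 at 1.11 times, Drc1 at 1.02 times and Rsph3b at 0.798 times were not raised there. The choroid plexus list was also highest in Sham mouse 4, at 1920 FPKM. The next highest was Sham mouse 1 at 365 FPKM, in which the members stood at a median of 0.847 times the other Sham mice. Ttr alone gave 1844 FPKM of the sum in Sham mouse 4 and 339 FPKM in Sham mouse 1. Sham mouse 4 was highest for both the choroid plexus list and the members, and the order of the other Sham mice differed. The relation of these levels was not tested with 6 animals of one group.

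**Figure D4:**
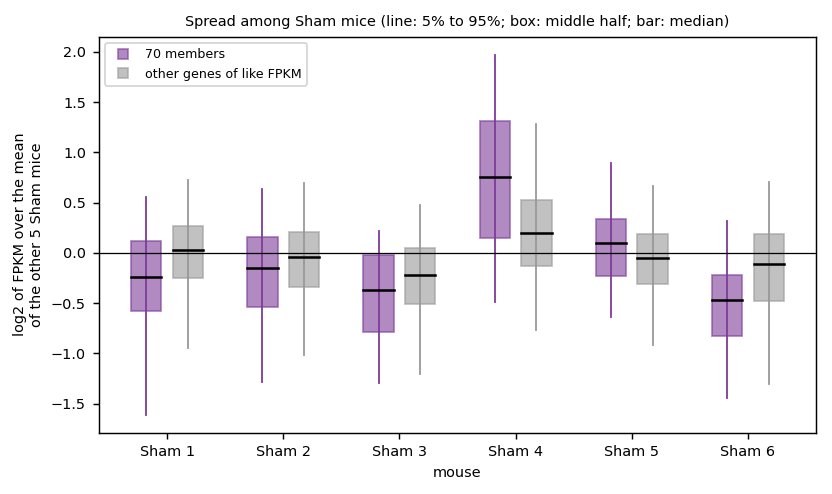
Log2 ratio of the level in each Sham mouse to the mean of the other 5 Sham mice (vertical axis), for the 70 members outside the broadly expressed class (purple) and for other genes of like FPKM (grey), with the median as a black bar and the box from the lower to the upper quartile. The members stood highest in Sham mouse 4, with a median of 0.75, and lowest in Sham mouse 6, with a median of -0.47.

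Leaving out Sham mouse 4 left the direction of every called member as it was. Without this mouse 10 of the 33 members fell (background 14.5%) and 2 rose (background 14.9%) on log2(FPKM + 1), where none was past a log2FC of 2. On whole fragments 16 of 74 fell (background 13.4%) and 5 rose (background 13.7%). Rsph9 and Drc1, which were above the minimum level in all 12 libraries, kept their calls with each single mouse left out (limma). The calls lost without Sham mouse 4 were those of Cfap95, Dnah1, Spag6l and Cfap300 on log2(FPKM + 1), at log2FC of -0.71, -0.19, -0.28 and 0.71.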

How the data were processed

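Poly(A) mRNA of 12 brain tissue samples (6 tMCAO/R, 6 Sham) was sequenced as paired ends on an Illumina NovaSeq. The authors trimmed reads with fastp, aligned them to GRCm39 with HISAT2 (v2.2.1) and counted them with HTSeq (v2.0.2), and deposited FPKM for 14317 genes; the library protocol names no step that marks strand. Groups were taken from the sample titles, and all 12 value columns were used. The titles state no batch.

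The deposited FPKM was tested as log2(FPKM + 1) with limma (v3.58.1, R v4.3.3; empirical Bayes with trend, group only) on genes that reached 0.5 FPKM in 6 or more libraries, with Benjamini-Hochberg adjustment over these genes. Whole fragments were recovered from the FPKM steps for all 14317 genes and tested with limma-voom. The search for the step allowed 1e-05 from a whole number, and the values were then rounded. On data simulated from these libraries for this comparison, limma called 100.0% of genes changed by 2 and 98.0% of those changed by 1 on the log2 scale. The changed genes were drawn from those with a Sham mean of at least 1 FPKM, with the same spread for every gene. These shares therefore do not apply to the 58 members with a mean under 1 FPKM, and a member without a call may still differ. The implied gene length equalled the GENCODE M39 exon union for 379 genes, and whether the release or the definition of length differs was not tested. Library depth limits members near 0, and intervals cover counting error only.

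The members and lists were chosen with earlier results of these data known. Named with values were the 6 added symbols, each member called on log2(FPKM + 1), the most abundant members of each class and near-identical paralogs (29 members); 12 more were named after their values were seen, as were the genes of other lists beyond the most abundant and the most significant. Replicate numbers of the titles did not pair the mice. Near-identical transcripts were found with BLAST (v2.17.0).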

Additional observations from a re-analysis of the deposited data

Results flagged for a closer look

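In 5 of 82 groups of 6 mice a single mouse lay apart from the rest, by a gap to its neighbour over the group's range above Dixon's 95% limit, and chance alone gives about 1 in 20. Sham mouse 4 was the mouse in 3 of them: it had 3.06 FPKM of Drc7 (other Sham mice 0.601 to 1.03), 1.27 FPKM of Cfap126 (0.374 to 0.567) and 0.0666 FPKM of Dnah3 (0.016 to 0.0272). tMCAO/R mouse 4 had 2.63 FPKM of Rfx3, against 0.984 to 1.51 FPKM in the other tMCAO/R mice. tMCAO/R mouse 1 had 0.188 FPKM of Tmem212, from 2 fragments, and the other 5 tMCAO/R mice had none.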

How the results depend on the processing

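On log2(FPKM + 1) 13 of 33 tested members fell and 3 rose (background 17.8% each). With no minimum level 20 of 79 fell and 6 rose (background 16.5% and 15.5%). A minimum mean of 1 FPKM left 21 members, of which 6 fell and 3 rose, against 1772 and 1916 of 10139 genes. With limma-voom on whole fragments 20 of 74 fell and 5 rose (background 16.5% and 16.3%). Quantile normalization gave 9 and 2 of 33, against 2141 and 2096 of 11743 genes. Leaving out 1 mouse gave 10 to 14 falls and 2 to 3 rises of 33, against 1696 to 2491 and 1667 to 2629 of 11743 genes. Past a log2FC of 2 there was 1 fall, 5 with a pseudocount of 0.1, 10 on whole fragments and 0 to 1 with a mouse left out (0 without Sham mouse 4), and there were no rises, but 1 on whole fragments. On whole fragments, leaving out 1 mouse gave 15 to 22 falls and 5 to 6 rises of 74, against 1822 to 2760 and 1802 to 2936 of 13900 genes. With the replicate number as a block, the counts were 13 and 3 on log2(FPKM + 1), where Dnah1 lost its call (limma, adjusted p = 0.024), and 13 and 6 on whole fragments. Over all genes the block gave 1699 and 1761 of 11743, and on whole fragments 1845 and 2169 of 13900. The numbers are only shared labels: same-numbered mice deviated together with a correlation of -0.12 to 0.22. On log2(FPKM + 1), 6 members changed sign with single mice left out, none of them called, among them Cfap298 (log2FC -0.027 to 0.14), Rsph1 (-0.29 to 0.19) and Rsph4a (-0.15 to 0.07). Over 36 named members, 663 alternative values held 77 lost calls and 3 gained ones, and 23 members never changed. Tekt1, which gained a call without tMCAO/R mouse 4, was not among these 36. The lost calls were those of Cfap300, Cfap95, Dnah1, Spag6, Spag6l, Dnah2, Dnah3, Dnai4 and Spag1; the cause was not tested. The whole-fragment refits with a mouse left out or with the block were chosen after seeing the data.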
